A study of Mus musculus with 4 samples.

Results

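The cells described here are the vaginal epithelial cells of ovary-intact mice that carried an S-phase signature without a G2 or mitotic signature and without differentiation transcripts. Members were chosen by measured values, the counts of 25 genes in each cell. A cell was a member when the unique molecular identifiers (UMIs, each standing for 1 captured transcript) of 10 S-phase genes summed to at least 4, those of 10 G2 and mitotic genes to at most 1, and those of Krt10, Krt6b, Krt13, Krt4 and Sprr1a to at most 2. In all 280 cells were members, of 4966 ovary-intact cells and 8446 cells in the series kept for having 200 or more genes detected and a mitochondrial share of UMIs no higher than 20%. WT library 1 held 214 members, 7.18% of its 2979 cells (95% exact Clopper-Pearson interval 6.28 to 8.17%), and WT library 2 held 66, 3.32% of its 1987 cells (2.58 to 4.21%). These intervals, and all others below, cover counting error only.

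The study profiled single cells of the mouse vaginal epithelium by Drop-seq, a droplet method that tags polyadenylated RNA of single cells with barcodes. All mice were C57BL/6. The ovary-intact group is named WT in the labels and the other group, OVX, was surgically ovariectomised, with 2 libraries in each group and 5 mice pooled per library. The vaginae were digested with pronase and DNase, and the epithelium was pressed out by hand with forceps, so cells of the tissue beneath could be carried over. The labels give no ages, no cycle stage of the intact mice and no interval after surgery. The duplicates of a group may not come from separate pools, so a p-value here reflects the spread from library to library alone, and that spread could be technical.

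In a stratified epithelium such as the vagina, cell division is found mainly in and near the basal layer, and daughter cells differentiate as they move outward and are shed. Before DNA synthesis the MCM helicase is loaded at replication origins, a step called licensing. E2F transcription factors then raise the genes for the helicase, the polymerases and the enzymes that make deoxynucleotides. Cells that pass through S phase go on to raise a distinct set of genes for chromosome condensation, the spindle and cytokinesis in G2 and mitosis.

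Promoters of S-phase rule genes are shown because E2F factors, which are known to act on many replication genes, bind short DNA sequences of a known form. RefSeq promoter windows (build GRCm38.p6, 250 bases before to 50 bases after each start) were searched on both strands for the E2F-type letters TTTGGCGC, TTTCCCGC, TTTGCCGC and TTTCGCGC. Any of these letters occurred in 744 of 32851 promoter windows (2.26%). Among the S-phase rule genes 8 of 10 had a window, and 5 of their 10 windows held a match, those of Mcm3, Mcm5, Mcm6, Lig1 and Hells. The Hells match began 62 bases before the start, whereas those of Mcm3 and Lig1 lay after it. In the Mcm5 and Mcm6 windows the matches on opposite strands overlapped. These 2 windows were chosen after the matches were seen. Each is printed over the 180 bases before the start, on the strand of the gene, with matched letters in capitals.
Mcm6 (chr1:128359706-128359885, minus strand): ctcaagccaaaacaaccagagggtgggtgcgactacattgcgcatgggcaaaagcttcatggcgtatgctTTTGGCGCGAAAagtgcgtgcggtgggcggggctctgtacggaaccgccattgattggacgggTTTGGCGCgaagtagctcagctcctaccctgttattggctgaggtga
Mcm5 (chr8:75109329-75109508, plus strand): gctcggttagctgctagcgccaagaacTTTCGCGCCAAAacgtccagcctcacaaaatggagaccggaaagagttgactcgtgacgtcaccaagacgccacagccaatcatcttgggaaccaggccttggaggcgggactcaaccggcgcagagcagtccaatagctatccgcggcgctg
In Mcm6 the overlapping pair began 110 and 106 bases before the start and a further match 47 bases before it, and in Mcm5 the pair began 153 and 149 bases before it. For genes outside the rule that appear below, 7 of 20 windows in the list of licensing and origin-firing genes held a match and 8 of 30 in the list of polymerases and fork proteins, against 0 of 29 for the G2 and mitosis genes outside the rule. A match is only an occurrence of these letters in the window.

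Members had a median of 1701.5 UMIs in WT library 1 (range 692 to 5464) and 1134 in WT library 2 (507 to 2455), against medians of 1597 and 799 over all kept cells of those libraries. They therefore came from the deeper cells, as a rule on raw UMI numbers favours. Summed, the members gave 417496 and 79242 UMIs, so values from library 1 carry the smaller counting error. The 4 libraries held 991112 to 5845107 UMIs. In all pairs of libraries 9 cell barcodes were shared, and none belonged to a member. No doublet caller was run.

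The 10 S-phase rule genes chose the members, so their levels are a description and carry no test. Levels are given as CPM, the UMIs of a gene scaled to a class total of 1000000 UMIs, and pairs of values are for WT libraries 1 and 2 in that order. Of the MCM helicase genes, Mcm3 stood at 328 and 353 CPM in members, Mcm5 at 163 and 177 and Mcm6 at 189 and 315. Pcna, the sliding clamp that holds polymerases on DNA, had the highest level of the rule genes at 915 and 846 CPM, followed in library 1 by the DNA ligase gene Lig1 at 659 and 467 CPM. Hells, a chromatin remodeller, stood at 371 and 707 CPM and was the second highest in library 2. The primase gene Prim1 was at 405 and 442 CPM, the thymidylate synthase gene Tyms at 156 and 265, the GINS subunit gene Gins2 at 165 and 252 and the cyclin gene Ccne2 at 151 and 215. Cells that failed the S-phase limit and served as comparison cells, described next, held 12.3 and 20.7 CPM of Mcm3, 43.1 and 36.7 of Lig1, 20.9 and 43.6 of Hells, 17.2 and 11.5 of Gins2 and 6.16 and 18.4 of Ccne2. All 5 were higher in members in both libraries, as the rule requires.

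Single members seldom showed the whole signature. The median member had 4 of the 10 S-phase genes detected in library 1 (range 1 to 9) and 3.5 in library 2 (2 to 7). Pcna was detected in 85.0% and 66.7% of members, and in 31.5% and 10.0% of cells with at least 10 differentiation UMIs, whose median depths were 2128 and 1262.5 UMIs. Ccne2 was detected in 20.1% and 22.7% of members against 3.63% and 0.870% of those differentiated cells. Of the differentiated cells 8.68% of 634 and 3.48% of 230 reached 4 S-phase UMIs with no limit on the G2 and mitotic genes, against 25.4% and 8.20% of all kept cells. The rule sum was 6 UMIs in the median member of library 1 and 4.5 in library 2.

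Most cells with an S-phase sum of 4 or more were not members. In library 1, 758 cells reached that sum, of which 416 failed only the G2 and mitotic limit, 40 only the differentiation limit and 88 both. In library 2, 163 cells reached it, of which 79, 5 and 13 failed these limits. Members are thus the S-phase cells in which G2 and mitotic transcripts were at most barely detected.

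Replication genes that the rule did not use varied with the rule sum across its threshold. They were summed over the list of licensing and origin-firing genes and that of polymerases and fork proteins. In library 1 they stood at 1690 CPM in cells with no S-phase rule UMI. They stood at 3583 just outside the threshold at a rule sum of 3 (68 cells) and 4564 just inside it at 4 (47 cells). In library 2 the same values were 1614, 6293 (32 cells) and 4643 (33 cells). The cells just outside were thus lower than those just inside in library 1 and higher in library 2. Members with a sum of 8 or more reached 6552 CPM in library 1 (65 cells) and 5850 in library 2, where only 2 cells had such a sum.

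**Figure D1:**
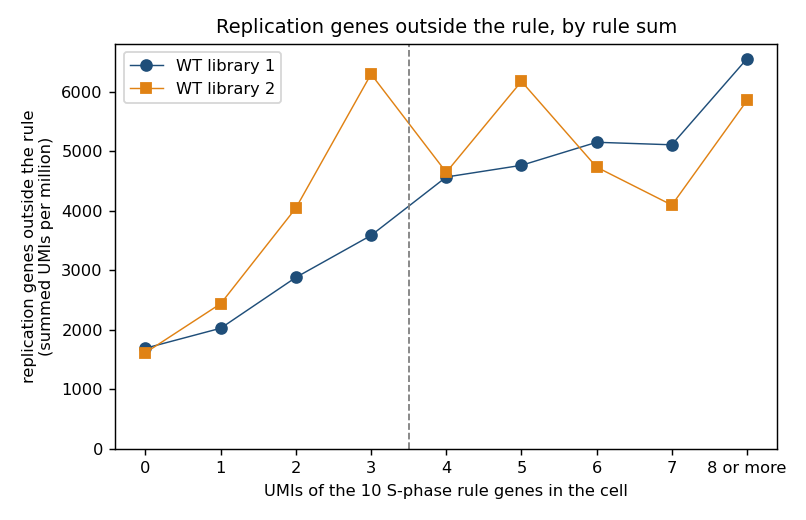
Summed level in CPM of replication genes outside the rule (vertical axis) by the number of S-phase rule UMIs in the cell (horizontal axis), for WT libraries 1 and 2, in cells that pass the G2, mitotic and differentiation limits. The dashed line is the threshold: library 1 rises across it from 3583 to 4564, library 2 goes from 6293 to 4643, and the points of library 2 at 6, 7 and 8 or more hold 6, 5 and 2 cells.

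The question asked of the other genes was how S-phase cells differed from cells of the same libraries without cycle signatures. Comparison cells had at most 1 S-phase UMI, at most 1 G2 or mitotic UMI and at most 2 differentiation UMIs, with a UMI total between the 5th and 95th percentiles of the members of the same library. There were 537 in library 1 (median 1357 UMIs) and 481 in library 2 (median 807), shallower than the members in both. UMIs were summed per library and class and tested with edgeR's quasi-likelihood test with the library as a block and Benjamini-Hochberg adjusted p-values, on 7318 genes that exclude the 25 rule genes. By edgeR 12 of 18 tested genes for origin licensing, 21 of 27 for the replication fork, 8 of 21 for nucleotide supply and 9 of 16 for DNA repair rose. Replication genes chose both classes, with at least 4 S-phase UMIs in members and at most 1 in comparison cells. Rises in these related lists were thus favoured by the rule, and their counts are not independent of it. Of 23 suprabasal keratinocyte genes 9 fell, and Krt5 and Krt14 fell slightly. In all 234 genes differed (3.2%), of which 164 genes were higher in S-phase cells (2.24% of those tested) and 70 were lower (0.957%), with a median log2 fold change of -0.02 over all genes. Of the 164 higher genes 157 had the same direction in both libraries, as did all 70 lower ones.

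These calls need both libraries. Without WT library 1 no gene passed (83 at an unadjusted p under 0.05) and without WT library 2 only 16 did, all higher, in fits that take the spread from the OVX libraries. DESeq2 called 67 higher and 16 lower. With no filter on low counts edgeR called 110 higher and 144 lower, and with no replicate block it called none (160 at an unadjusted p under 0.05). Of the 61 genes that the naming rule gave and that passed, none of those tested changed direction without library 1 or without library 2. Pcna-ps2 is 1 of the 61, but its reads cannot be told from those of the rule gene Pcna.

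Licensing and origin-firing genes were higher as a group, a direction that the rule on related MCM and fork genes favoured. Of 23 genes in the list 18 were tested, 12 rose and none fell, and their median log2 fold change was 1.93. Mcm2, a subunit of the helicase (chr6:88883474-88898780, minus strand, GENCODE vM21 on mm10, as for the gene spans below), stood at 228 and 101 CPM in S-phase cells and 46.8 and 16.1 in comparison cells, and edgeR fitted a log2 difference of 2.27 ± 0.28 (adjusted p = 3.56e-10). Here and below, values with ± in brackets are log2 fold changes with their standard errors. Its partner Mcm4 stood at 170.1 and 239.8 against 30.8 and 59.7 CPM (2.14 ± 0.28, edgeR adjusted p = 2.22e-09). Gmnn (chr13:24751845-24761923, minus strand) encodes geminin, which blocks renewed licensing once replication has begun. It stood at 225 and 290.2 against 43.1 and 43.6 CPM (2.36 ± 0.24, edgeR adjusted p = 1.83e-13), the smallest p of the list. Clspn, whose product claspin carries checkpoint signals at the fork, stood at 113 and 37.9 against 7.39 and 11.5 CPM (3.21 ± 0.43, edgeR adjusted p = 7.30e-09). For all 4 genes both S-phase sums lay above both comparison sums. Here and below, such a separation of 2 against 2 sums only describes the values. It can arise by chance and adds nothing to the test. Dtl (chr1:191537356-191575544, minus strand), outside the lists, encodes the adaptor of the ubiquitin ligase that removes the licensing factor Cdt1 during S phase. It stood at 139 and 101 against 12.3 and 4.59 CPM (3.58 ± 0.39, edgeR adjusted p = 1.60e-12).

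Most genes of the polymerases and the fork were higher. Of 32 genes 27 were tested, 21 rose and none fell, with a median of 1.61. Summed over the list, S-phase cells held 3600.0 and 3003 CPM and comparison cells 1250.0 and 1186. Histone chaperones deposit nucleosomes behind the fork. Chaf1b (chr16:93883901-93906115, plus strand), a subunit of chromatin assembly factor 1, stood at 33.5 and 75.7 CPM against 1.23 and 2.29. The comparison values rest on 1 UMI in each library, and the ratio of pooled counts was 25.1 with a counting interval of 6.10 to 222. Its partner subunit Chaf1a stood at 117 and 88.3 against 14.8 and 20.7 CPM (2.59 ± 0.37, edgeR adjusted p = 6.06e-08). Asf1b, which hands histones to that factor, stood at 40.7 and 75.7 against 3.69 and 6.88 CPM (3.31 ± 0.58, edgeR adjusted p = 1.24e-05). All 3 chaperone genes were higher in S-phase cells of both libraries. Nasp, a further histone chaperone gene, was also expressed in comparison cells and differed less in relative terms, at 819 and 315 against 341 and 172 CPM (1.12 ± 0.14, edgeR adjusted p = 1.64e-10).

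The remaining named fork genes act on the DNA strands. Rpa2, part of the protein that coats unwound strands, stood at 141 and 75.7 against 17.2 and 27.5 CPM (2.45 ± 0.35, edgeR adjusted p = 2.70e-08). Dnmt1, which copies DNA methylation onto the new strand, stood at 283 and 151 against 91.1 and 57.4 CPM (1.61 ± 0.21, edgeR adjusted p = 2.22e-09). For Rpa2 and Dnmt1 the groups did not overlap, whereas for Nasp the library 2 S-phase sum lay below the library 1 comparison sum and the rise is seen within libraries. Atad5, which unloads the Pcna clamp, stood at 81.4 and 75.7 against 11.1 and 4.59 CPM (2.98 ± 0.46, edgeR adjusted p = 3.23e-07). Fam111a, a protease gene linked to Pcna at the fork, stood at 280.2 and 151 against 41.9 and 34.4 CPM (2.54 ± 0.25, edgeR adjusted p = 1.42e-14). The Pcna pseudogene Pcna-ps2 was also called (3.45 ± 0.47, edgeR adjusted p = 8.38e-09), but its reads cannot be told from those of the rule gene Pcna. Nothing is read from this call.

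Nucleotide supply genes were higher in part. All 21 genes of the list were tested, 8 rose and none fell, with a median of 0.60. Tk1, thymidine kinase, stood at 132 and 164 against 20.9 and 32.1 CPM (2.39 ± 0.31, edgeR adjusted p = 2.41e-09). The groups did not overlap. Dut, which keeps uracil out of DNA, stood at 187 and 303 against 54.2 and 73.4 CPM (1.80 ± 0.23, edgeR adjusted p = 2.04e-09). Rrm1, the large subunit of ribonucleotide reductase, stood at 402 and 315 against 184 and 149 CPM (1.10 ± 0.17, edgeR adjusted p = 2.15e-07). The small subunit gene Rrm2 passed barely (edgeR adjusted p = 0.04995), with UMIs in 12.1% and 15.2% of members against 3.35% and 4.78% of comparison cells. The other calls of the list were Mthfd1, Paics and Ppat, enzymes of folate and purine synthesis. These 3 genes and Rrm2 were named after their values were seen.

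DNA repair and checkpoint genes had 9 of 16 tested members higher and none lower, with a median of 1.89 (22 genes in the list). The recombination gene Brca2 stood at 91.0 and 50.5 against 12.3 and 16.1 CPM (2.44 ± 0.41, edgeR adjusted p = 3.77e-06). The replication checkpoint kinase gene Chek1 stood at 76.6 and 63.1 against 14.8 and 4.59 CPM (2.52 ± 0.44, edgeR adjusted p = 1.10e-05). Neither had an overlap between the groups. Msh6, a mismatch repair gene, stood at 108 and 63.1 against 27.1 and 20.7 CPM (1.83 ± 0.34, edgeR adjusted p = 5.57e-05).

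Chromatin genes rose in 10 of 26 tested cases, with a median of 0.45 and none lower. Smc2, a condensin subunit, stood at 242 and 114 against 54.2 and 27.5 CPM (2.14 ± 0.24, edgeR adjusted p = 4.91e-12). Dek, a chromatin-binding factor, stood at 1073 and 921 against 453 and 445 CPM (1.10 ± 0.11, edgeR adjusted p = 2.34e-13). The heterochromatin protein gene Cbx5 and the histone methyltransferase gene Ezh2 had log2 fold changes of 1.33 ± 0.17 and 1.22 ± 0.16 (edgeR adjusted p = 1.15e-09 and 1.02e-09). Cenpk, a centromere protein gene outside the list, stood at 146 and 126 against 17.2 and 22.9 CPM (2.78 ± 0.33, edgeR adjusted p = 5.56e-11). Its partner Cenph stood at 149 and 126 against 16.0 and 25.2 CPM (2.73 ± 0.34, edgeR adjusted p = 2.50e-10). A histone gene moved the other way. Hist1h2bc (chr13:23684199-23692908, plus strand), an H2B gene, stood at 67.1 and 37.9 CPM in S-phase cells and 297 and 399 in comparison cells, the largest of the 12 named falls (-2.39 ± 0.24, edgeR adjusted p = 2.82e-14). Histone genes are near-identical copies, and this method captures only polyadenylated RNA, so histone values are uncertain.

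**Figure D2:**
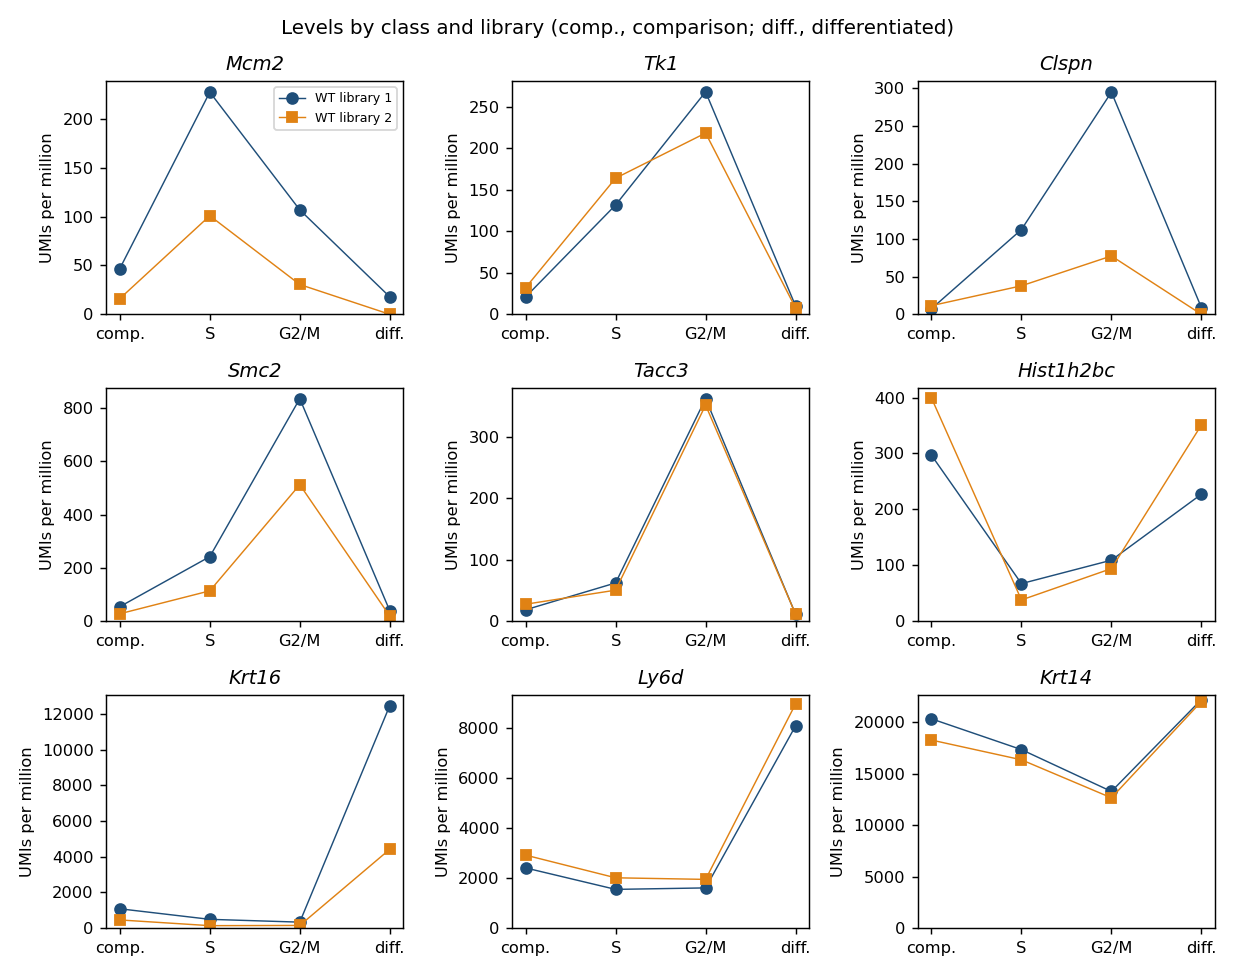
Level in CPM (vertical axis) of 9 genes in comparison, S-phase, G2 and mitotic, and differentiated cells (horizontal axis) of WT libraries 1 and 2, each point being 1 summed class of 1 library. Mcm2 is highest in S-phase cells in both libraries, Smc2 and Tacc3 are highest in G2 and mitotic cells, Hist1h2bc is lowest in S-phase cells, and Krt16 and Ly6d are highest in differentiated cells.

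Regulators of G1 and S phase changed in few cases. Of 23 tested genes 4 rose and 1 fell. Cdk4, the G1 kinase, stood at 628 and 442 against 372 and 250.1 CPM (0.70 ± 0.13, edgeR adjusted p = 4.65e-05), and the transcription factor gene E2f3 at 59.9 and 75.7 against 20.9 and 11.5 (1.68 ± 0.42, edgeR adjusted p = 0.00634). Rbl1, a pocket protein that restrains E2F, stood at 103 and 114 against 34.5 and 43.6 CPM (1.42 ± 0.32, edgeR adjusted p = 0.00148). The cyclin gene Ccne1, named after its value was seen, was the fourth to rise (2.49 ± 0.63, edgeR adjusted p = 0.00763) and was detected in 15 of 280 members. Cdkn1a, which encodes the cyclin-dependent kinase inhibitor p21, was the gene that fell, at 218 and 278 against 352 and 333 CPM (-0.63 ± 0.16, edgeR adjusted p = 0.00697).

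Among 32 G2 and mitosis genes outside the rule 2 rose and none fell by edgeR, and DESeq2 called none. These were Tacc3, a spindle protein gene, at 62.3 and 50.5 against 18.5 and 27.5 CPM (edgeR adjusted p = 0.0179), and the kinetochore gene Ndc80, at 31.1 and 63.1 against 4.93 and 11.5 (edgeR adjusted p = 0.0132). Bub1b and Ttk, checkpoint kinases of mitosis, had 3 UMIs each in comparison cells, and their ratios of pooled counts were both 7.54 (counting interval 1.88 to 43.3), without passing the test (edgeR adjusted p = 0.0544 and 0.0665). The rule holds related genes at a ceiling in both classes, so these levels are bounded by the choice of cells.

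Basal keratin transcripts were present throughout. All 280 members had UMIs of Krt5 or Krt14, as did all 1018 comparison cells, so that detection alone does not identify a cell. Members had a median of 57 in library 1 (range 9 to 337) and 22 in library 2 (3 to 91). Krt14 stood at 17346 and 16355 CPM in S-phase and 20342 and 18276 in comparison cells (-0.25 ± 0.06, edgeR adjusted p = 0.00141). Krt5 stood at 22578 and 6348 against 26332 and 6743 CPM (-0.22 ± 0.06, edgeR adjusted p = 0.0155). The fall in each gene was small beside the difference between libraries in Krt5. Of 20 basal keratinocyte genes tested 4 fell and none rose by edgeR, while DESeq2 called none, the others being Krt17 (-0.71 ± 0.17) and the decoy interleukin receptor gene Il1r2 (-0.34 ± 0.09). Trp63, the master transcription factor of stratified epithelia, stood at 565 and 353 against 543 and 379 CPM (0.00 ± 0.13, edgeR adjusted p = 0.995). It was detected in 62.1% and 30.3% of members and in 54.7% and 27.4% of comparison cells.

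Genes of the layers above were lower in S-phase cells. Of 23 suprabasal keratinocyte genes outside the rule that were tested 9 fell, none rose, and all 23 fold changes were negative, with a median of -0.60. The rule capped 5 other differentiation genes at 2 UMIs in both classes, which does not make them equal. Members were deeper, with medians of 1701.5 and 1134 UMIs against 1357 and 807, so the same cap was stricter for them per UMI. The part of this stricter cap in the falls was not tested. Krt10 stood at 59.9 and 164 CPM in members and 102 and 211 in comparison cells, and Krt6b at 55.1 and 151 CPM in members and 121 and 195 in comparison cells. Krt16 (chr11:100246091-100248902, minus strand), an activation keratin, stood at 481 and 126 against 1074 and 447 CPM (-1.27 ± 0.12, edgeR adjusted p = 9.23e-15). Its relative Krt6a stood at 1456 and 1136 against 2169 and 1735 CPM (-0.60 ± 0.09, edgeR adjusted p = 4.30e-08). Krt6a was detected in 65.0% and 51.5% of members and in 78.2% and 61.7% of comparison cells, although members were deeper. Ly6d, a surface protein of stratified epithelium, stood at 1543 and 2007 against 2402 and 2914 CPM (-0.66 ± 0.08, edgeR adjusted p = 6.50e-11). Sfn, a 14-3-3 protein that restrains the cell cycle, stood at 1209.6 and 2423 against 1793 and 3726 CPM (-0.63 ± 0.08, edgeR adjusted p = 1.30e-09), and Krtdap at 1001 and 2272 against 1656 and 2852 (-0.62 ± 0.09, edgeR adjusted p = 2.16e-08). For Sfn and Krtdap the library 2 S-phase sum lay above the library 1 comparison sum, and for Krt16 the library 1 S-phase sum lay above the library 2 comparison sum, so these falls are seen within libraries only. Krt1, an early differentiation keratin, stood at 28.7 and 50.5 against 69.0 and 101 CPM without passing (edgeR adjusted p = 0.0809).

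**Figure D3:**
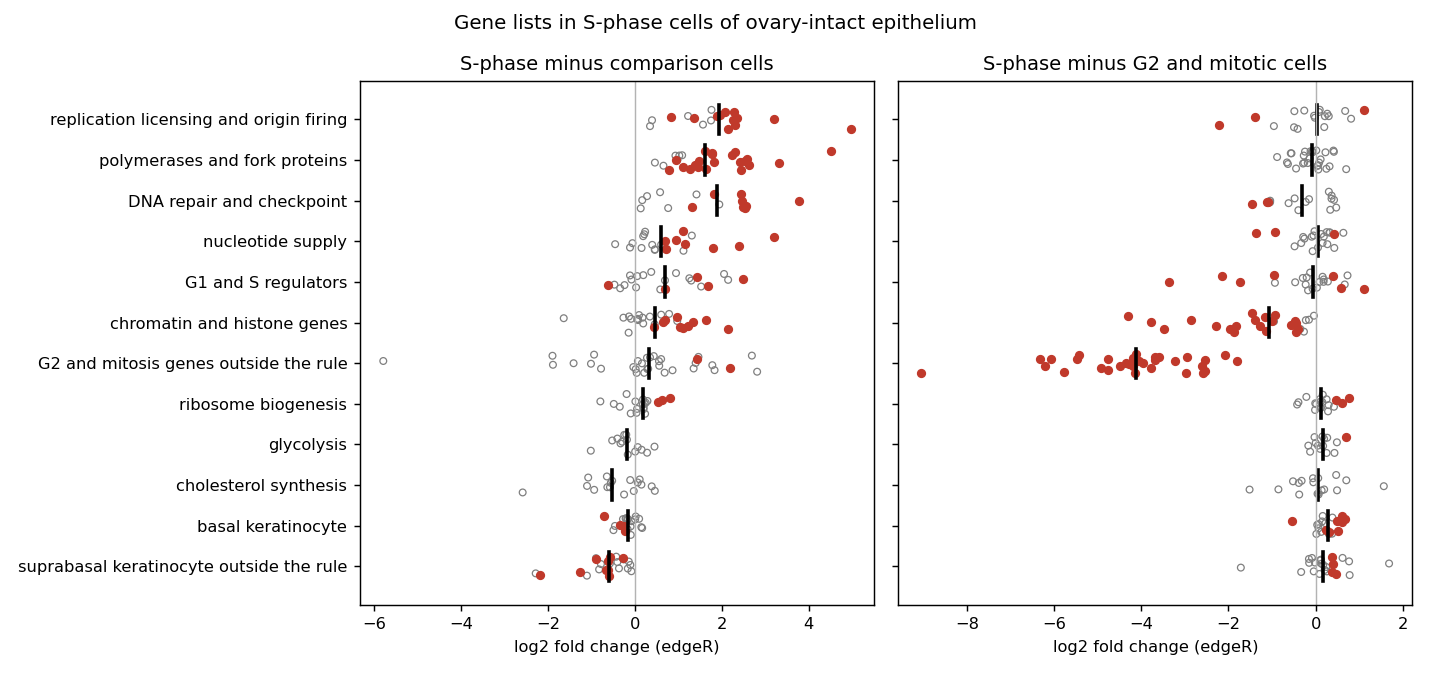
Log2 fold change (horizontal axis) of each tested gene of 12 lists (vertical axis) in S-phase cells against comparison cells (left) and against G2 and mitotic cells (right), from sums of 2 WT libraries. Filled red points passed an edgeR adjusted p of 0.05 and black bars are list medians: the licensing median is 1.93 on the left and 0.03 on the right, and the suprabasal points on the left all lie below 0.

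The other named falls had varied roles. The desmosomal cadherin gene Dsc2 stood at 103 and 252 against 225 and 262 CPM (-0.90 ± 0.20, edgeR adjusted p = 0.00166), a difference carried by library 1. Of the retinoid genes, Lrat, which makes retinyl esters, stood at 50.3 and 25.2 against 101 and 89.5 CPM and Rdh12, which reduces retinal, at 81.4 and 37.9 against 116 and 220.3 (edgeR adjusted p = 0.0426 and 0.0150). Mxd4, which opposes Myc on DNA, stood at 129 and 63.1 against 235 and 163 CPM (-0.96 ± 0.21, edgeR adjusted p = 0.00143). In the cornified envelope list 1 of 7 tested genes fell, and in the immediate early list 1 of 9. These were Csta1, of the stefin cluster of similar genes, which stood at 158 and 139 against 273 and 204 CPM, and the transcription factor gene Klf6 at 98.2 and 164 against 177 and 199.6 (edgeR adjusted p = 0.00726 and 0.0413). Kdm7a, a histone demethylase gene, stood at 24.0 and 25.2 against 73.9 and 29.8 CPM, with 2 UMIs in library 2 members (edgeR adjusted p = 0.0260). Yif1a, 1810022K09Rik and Gm94 completed the 12 largest falls, with log2 fold changes of -0.91 ± 0.27, -0.84 ± 0.21 and -0.79 ± 0.24.

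Of the hormone receptors, Esr1, the oestrogen receptor alpha gene, stood at 141 and 63.1 CPM in S-phase cells and 138 and 82.6 in comparison cells without passing (-0.02 ± 0.24, edgeR adjusted p = 0.989). The progesterone receptor gene Pgr stood at 165 and 189 against 245 and 115 CPM, lower in library 1 and higher in library 2 (edgeR adjusted p = 0.510). Of 11 tested genes of hormone receptors and oestrogen response 1 passed, the glucocorticoid receptor gene Nr3c1, at 206 and 50.5 against 116 and 22.9 CPM (0.89 ± 0.24, edgeR adjusted p = 0.0147). No gene passed by edgeR or DESeq2 among 5 of the EGF family (0 at an unadjusted edgeR p under 0.05), 10 of the Wnt and Notch pathways (6 unadjusted), 3 of simple epithelium (1 unadjusted) and 14 of glycolysis (1 unadjusted). None of 17 cholesterol synthesis genes passed by either tool (3 unadjusted), with a median of -0.52. The smallest p of that list was that of Lss, which had 2 UMIs in members (edgeR adjusted p = 0.0684). In the ribosome biogenesis list 3 of 19 rose, the nucleolar genes Nolc1 (0.82 ± 0.13), Nop58 (0.52 ± 0.11) and Nop56 (0.63 ± 0.18).

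Markers of other cell types were low in members. At least 1 UMI of the antigen-presentation and myeloid genes Cd74, H2-Aa, H2-Ab1, H2-Eb1, Tyrobp and Fcer1g was found in 2 of 280 members and in 14 of 1018 comparison cells. The 12 macrophage and dendritic markers summed to 4.79 and 12.6 CPM in members, with 10 and 11 of the 12 at 0, against 143 and 154 CPM in comparison cells. Cd74 and H2-Aa, of the antigen-presentation machinery, had no UMI in members and were at least 7.17-fold and 3.85-fold lower than in comparison cells, computed against 3 UMIs over both libraries. With cells of at least 5 such UMIs left out, 164 genes were higher and 68 lower, an alternative chosen after seeing the data. The 7 fibroblast markers summed to 328 and 315 CPM in members, with 6 of 7 at 0 in each library, and to 346 and 271 in comparison cells. The marker present was Sparc, which basal keratinocytes may also express, and neutrophil, erythroid and melanocyte markers had no UMI in members. Those 3 lists held only 5, 2 and 1 genes with UMIs in any class. The erythroid and melanocyte genes had at most 1 UMI per class and library, so their absence from members says little. T and NK cell markers summed to 43.1 and 50.5 CPM in members against 71.4 and 80.3 in comparison cells, and smooth muscle and endothelial markers had at most 3 UMIs per library in members. The part of the fibroblast, T and NK, smooth muscle and endothelial markers in the gene results was not tested.

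S-phase cells were next set against G2 and mitotic cells (667 in library 1 and 351 in library 2). These had at least 4 G2 and mitotic UMIs and at most 2 differentiation UMIs. Their S-phase UMIs were not limited, and the median sum was 4 in library 1 and 1 in library 2. This class thus also holds cells with an S-phase signature, and their part in this comparison was not tested. Chromatin genes were higher in G2 and mitotic cells, D-type cyclins and some basal genes were higher in S-phase cells, and most replication genes did not pass in either direction. Neither the D-type cyclins nor any tested basal gene had been called higher against comparison cells. On the same 7318 genes 312 differed (4.26%), of which 67 were higher in S-phase cells (0.916%) and 245 lower (3.35%). Without WT library 1 the calls fell to 1 and without WT library 2 to 85, and DESeq2 called 126. All 32 G2 and mitosis genes outside the rule were lower, with a median of -4.13, but related genes chose both classes, so nothing is read from this count. Prr11, Cdkn3, Cdc25c and Nek2 had no UMI in members and were at least 24.7-fold, 19.6-fold, 12.1-fold and 7.40-fold lower, and Kif23, of the cytokinesis machinery, had 3 UMIs and a pooled ratio of 77.4 (counting interval 26.4 to 376).

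None of 27 polymerase and fork genes passed in either direction by edgeR (3 at an unadjusted p under 0.05) or by DESeq2. Their summed level was 3600.0 and 3003 CPM in S-phase cells and 3782 and 2917 in G2 and mitotic cells. Of 18 licensing genes Mcm2 was higher, at 228 and 101 against 107 and 30.5 CPM (1.11 ± 0.23, edgeR adjusted p = 1.99e-04). In the same list Clspn was lower at 113 and 37.9 against 295 and 77.5 CPM (-1.39 ± 0.23, edgeR adjusted p = 1.47e-06), and so was Dbf4, the activator of the origin-firing kinase, at 33.5 and 12.6 against 137 and 122 (-2.21 ± 0.33, edgeR adjusted p = 9.12e-08). Of the nucleotide genes, Tk1 was lower in S-phase cells at 132 and 164 against 268 and 218 CPM, and Rrm2 at 64.7 and 126 against 167 and 284 (edgeR adjusted p = 2.99e-04 and 1.73e-05). Both were higher than in comparison cells.

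Chromatin genes were mostly lower in S-phase cells. The G2 and mitotic rule genes, Top2a among them, chose both classes, so this direction was favoured by the rule. The count is not independent of it. Of 26 tested 20 were lower in S-phase cells and none was higher, with a median of -1.08. Smc2 stood at 242 and 114 CPM in S-phase against 835 and 512 in G2 and mitotic cells (-1.88 ± 0.14, edgeR adjusted p = 3.90e-22), and Dek at 1073 and 921 against 1630.1 and 1139 (-0.58 ± 0.10, edgeR adjusted p = 2.06e-06). Hmgb2, a DNA-bending chromatin protein gene, stood at 101 and 239.8 against 519.9 and 890.2 CPM (-2.28 ± 0.17, edgeR adjusted p = 3.03e-23). For Smc2, Dek and Hmgb2 the level in S-phase cells lay between those of comparison and of G2 and mitotic cells in both libraries.

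Among the G1 and S regulators 3 were higher in S-phase cells and 4 lower. Of the D-type cyclins of G1, Ccnd2 stood at 352 and 454 against 165 and 181 CPM (1.10 ± 0.16, edgeR adjusted p = 1.21e-08). Ccnd1 stood at 414 and 239.8 against 258 and 202 CPM (0.58 ± 0.15, edgeR adjusted p = 0.00605). The kinase they activate, Cdk4, stood at 628 and 442 against 477 and 275 CPM (edgeR adjusted p = 0.0330). Lower were Ccna2, the cyclin of S phase and G2, at 16.8 and 25.2 against 166 and 265 CPM, the repressor gene E2f8 at 16.8 and 12.6 against 75.8 and 49.3, and the kinase inhibitor genes Cdkn1b and Cdkn2c (edgeR adjusted p = 4.26e-14, 3.67e-04, 0.00346 and 0.0145). Apart from Cdk4, these names, Hmgb2, Dbf4 and Krt15 were chosen after their values were seen. The lower level of Ccna2, a cyclin of S phase and G2, was likewise favoured by the G2 and mitotic limits.

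The 6 largest rises against G2 and mitotic cells lay outside the cycle lists. Dlk2, a Notch pathway ligand relative, stood at 88.6 and 126 CPM against 23.7 and 35.2 (1.81 ± 0.32, edgeR adjusted p = 6.74e-06), and Col12a1, a collagen gene, at 149 and 126 against 63.6 and 51.7 (1.19 ± 0.25, edgeR adjusted p = 3.29e-04). Neither differed from comparison cells by the test (0.85 ± 0.30 and 0.31 ± 0.24, edgeR adjusted p = 0.125 and 0.722). The immunoproteasome gene Psmb10 stood at 71.9 and 101 against 29.1 and 21.1 CPM, Ak1 at 45.5 and 88.3 against 21.0 and 16.4, Nucb1 at 67.1 and 37.9 against 29.1 and 16.4, and Psme2b, a near copy of another gene and thus uncertain, at 21.6 and 239.8 against 10.2 and 77.5. In the basal keratinocyte list 7 of 20 genes were higher and 1 was lower. Krt14 stood at 17346 and 16355 CPM against 13277 and 12655 (0.31 ± 0.06, edgeR adjusted p = 1.23e-05), and the gene that was lower, Krt15, at 848 and 959 against 1091 and 1630.1 (-0.54 ± 0.10, edgeR adjusted p = 2.88e-05). This comparison shares the S-phase sums with the one before it, so the 2 sets of calls are not independent.

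The same rule was then applied to the ovariectomised libraries, which the choice of members did not use. It found 5 cells in OVX library 1 (4265 UMIs in all) and 42 in OVX library 2 (48147 UMIs). Kept cells there had median depths of 435 and 738 UMIs, and mitochondrial shares were higher, with medians of 8.08% and 8.27% in cells that passed the rule against 4.01% and 3.40% in the members. The part of mitochondrial share in the results that follow was not tested, nor was that of depth in the gene tests.

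Depth was equalised by drawing 500 UMIs from each cell, leaving out 256 WT and 1201 OVX cells with fewer, and counting cells with at least 2 S-phase UMIs that still met the other limits. The share was 9.40% in WT library 1 (280 of 2979, interval 8.37 to 10.5%), 6.70% in WT library 2 (116 of 1731, 5.57 to 7.98%), 3.39% in OVX library 1 (21 of 620, 2.11 to 5.13%) and 4.46% in OVX library 2 (74 of 1659, 3.52 to 5.57%). Both WT libraries lay above both OVX libraries. The mean was 8.05 ± 1.91% in WT and 3.92 ± 0.759% in OVX (SD, n = 2 each), a difference of 4.13 percentage points with an exact two-sided permutation p of 0.333, the smallest that 2 against 2 allows. Without thinning, the rule itself gave 5.25 ± 2.73% and 1.26 ± 1.33%. With at least 3 S-phase UMIs the difference was 2.46 points. At 800 UMIs, which left out 1181 WT and 2493 OVX cells, the means were 10.6 ± 1.84% in WT and 7.74 ± 1.64% in OVX, a difference of 2.84 points. There WT library 2, at 9.28% (interval 7.55 to 11.3%), and OVX library 2, at 8.90% (7.04 to 11.1%), had overlapping intervals. These shares also depend on the G2, mitotic and differentiation limits. S-phase UMIs alone, without those limits, gave 26.6% and 20.7% in WT at 800 UMIs and 7.19% and 10.1% in OVX. The same shares at 500 UMIs were 17.7% and 10.9% in WT and 3.39% and 4.76% in OVX. At 500 UMIs 57.0% and 71.2% of the WT members kept at least 2 S-phase UMIs, as did 3.63% and 2.26% of WT cells with at least 10 differentiation UMIs, so a share of that size can be background. Those differentiated cells had no G2 or mitotic limit, so the measures are not the same. Kept cells held 1487 and 1000 CPM of S-phase rule genes in WT against 413 and 594 in OVX, so background may differ between the groups. In OVX, 0 of 4 differentiated cells of library 2 kept 2 S-phase UMIs. Of cells with at least 5 antigen-presentation and myeloid UMIs, 0 of 4 in OVX library 1 and 1 of 13 in OVX library 2 did. These are too few to set a background. The OVX library 1 share lay below the 3.63% of WT library 1 and above the 2.26% of WT library 2. It is not read as S-phase cells. The OVX library 2 interval included 3.63%, so part of that share can be background too.

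**Figure D4:**
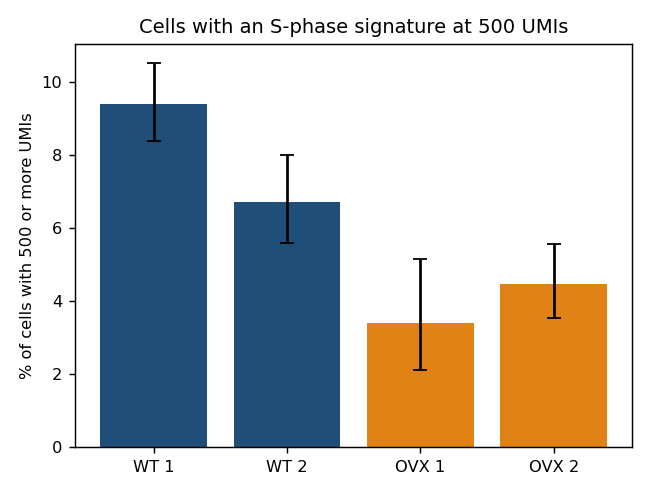
Percentage of cells with at least 2 S-phase UMIs, at most 1 G2 or mitotic UMI and at most 2 differentiation UMIs after drawing 500 UMIs per cell (vertical axis, starting at 0), for each library (horizontal axis), with 95% exact binomial intervals as error bars. WT libraries 1 and 2 stand at 9.40% and 6.70%, OVX libraries 1 and 2 at 3.39% and 4.46%.

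In cells that passed the rule after ovariectomy, replication genes outside the rule were again higher than in comparison cells of the same library, as the rule favours. Licensing genes summed to 1861 and 2069.6 CPM in WT members and 2110.2 and 2098 in OVX cells, the OVX library 1 value resting on 9 UMIs. In comparison cells they summed to 509 and 592 in WT and 505 and 494 in OVX (766 and 724 cells). Polymerase and fork genes summed to 5158 and 3759 CPM in the OVX cells against 1158 and 1359 in their comparison cells. Among 1413 genes that could be tested, none of 6 licensing and none of 9 polymerase and fork genes differed between OVX and WT S-phase cells by edgeR (0 and 1 at an unadjusted p under 0.05) or by DESeq2.

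In total 11 genes differed (0.778%). Of these 2 were higher in OVX than in WT S-phase cells (0.142% of those tested) and 9 were lower (0.637%). A gene entered this test by its level in at least 2 sums. Genes high in both WT sums could enter with no OVX UMI. A gene found only in OVX needed a UMI in the 5 cells of OVX library 1. The split of 2 against 9 is shaped by this filter, and nothing is read from it. Krt6a stood at 1456 and 1136 CPM in WT members and had no UMI in OVX cells, which makes it at least 24.5-fold lower, computed against 3 UMIs over both OVX libraries (edgeR adjusted p = 0.00345). Igfbp2, a binding protein for insulin-like growth factors, stood at 1219 and 984 CPM in WT and was at least 20.6-fold lower (edgeR adjusted p = 0.00345). Neither gene had a UMI in OVX cells that passed the rule. Gap43, at 431 and 467 CPM in WT, was at least 7.63-fold lower, and BC100530, of the stefin cluster, at least 17.5-fold lower (edgeR adjusted p = 0.0235 and 0.00345). Dmkn, a suprabasal secreted protein gene, had 2 UMIs in OVX cells and a pooled ratio of 20.3 (counting interval 5.57 to 168). Also lower were Krtdap, Fam162a and Il1r2, named after their values were seen. In the basal list 3 of 13 tested genes fell and in the suprabasal list 3 of 8.

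The genes higher after ovariectomy were Fmo2, a flavin monooxygenase gene, at 234 and 291 CPM in OVX libraries 1 and 2 against 9.58 and 0 in WT (4.95 ± 1.11, edgeR adjusted p = 0.0217), and Atp1b1, a sodium pump subunit gene, at 234 and 353 against 21.6 and 12.6 (3.91 ± 0.98, edgeR adjusted p = 0.0470). Each OVX library 1 value is 1 UMI. The basal keratins did not pass. Krt5 stood at 1172 and 2845 CPM in OVX cells against 22578 and 6348 in WT (edgeR adjusted p = 0.156), and Krt14 at 5158 and 2513 against 17346 and 16355 (edgeR adjusted p = 0.231), with all OVX values below all WT values. Without OVX library 2 no gene passed (134 at an unadjusted p under 0.05), without OVX library 1 4 did, without WT library 1 only BC100530 did, and without WT library 2 27 did.

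Low levels of Krt6a and Igfbp2 were also found in OVX comparison cells. Krt6a stood at 65.5 and 41.6 CPM there against 2169 and 1735 in WT comparison cells, and Igfbp2 at 14.8 and 24.1 against 1468 and 1161. Fmo2 stood at 1160.2 and 936 CPM in OVX comparison cells, above its level in OVX S-phase cells, and at 4.93 and 4.59 in WT. Whether the difference between S-phase and comparison cells itself changed after ovariectomy was tested as an interaction over 7511 genes. No gene passed (0% of those tested, 267 at an unadjusted p under 0.05 by edgeR, and none by DESeq2 with 59 unadjusted). Without OVX library 2, whose removal leaves 5 S-phase cells in the group, 56 genes passed, and without OVX library 1 1 gene did. Whether the genes above responded to ovariectomy alike in S-phase and comparison cells cannot be told apart at this depth. The comparison cells of WT and OVX also differed in their mix of cells, as given above.

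**Figure D5:**
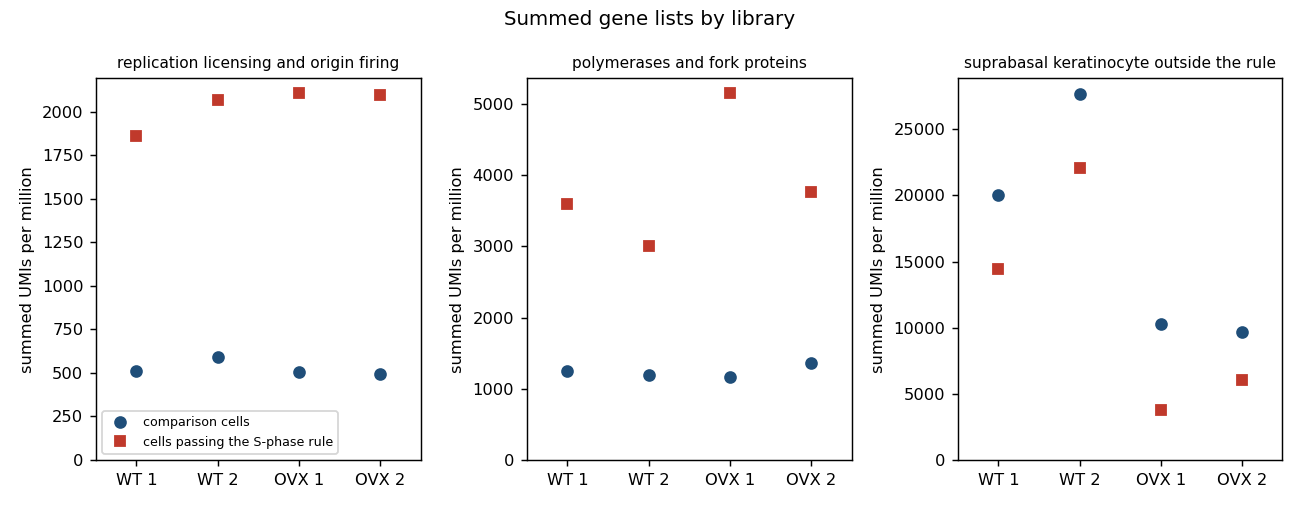
Summed level in CPM (vertical axes, starting at 0) of licensing genes, polymerase and fork genes, and suprabasal genes outside the rule in comparison cells (circles) and cells passing the S-phase rule (squares) of each library (horizontal axis). The S-phase squares lie above the circles for both replication lists and below them for the suprabasal list in all 4 libraries, and OVX library 1 squares come from 5 cells.

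Summed suprabasal genes outside the rule stood at 14458 and 22072 CPM in WT members and 20055 and 27653 in WT comparison cells, against 3751 and 6065 CPM in OVX cells passing the rule and 10256 and 9672 in OVX comparison cells. The S-phase sum was below the comparison sum in each of the 4 libraries, and the OVX S-phase sums of 16 and 292 UMIs were below both WT S-phase sums. The OVX comparison cells were a different mix from those of WT, so these contrasts are not like for like.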

How the data were processed

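Single-cell UMI counts were deposited by the authors as 1 table of genes by cell barcodes per library, in whole-number counts that are not normalized. The submitters' processing notes name the build mm10 and Seurat 2. The sources used here name no aligner, annotation or rule for keeping barcodes. Cells with fewer than 200 genes or more than 20% mitochondrial UMIs were left out. Counts were summed per library and class, and 8 WT sums (S-phase, comparison, G2 and mitotic, differentiated) shared 1 fit in edgeR 4.0.16 (R 4.3.3) with TMM scaling, filterByExpr, the library as a block and Benjamini-Hochberg adjustment over all genes tested at 0.05. DESeq2 1.42.0, RLE scaling, no filter on low counts, other class limits and leaving out each library were the alternatives. Differentiated cells had at least 10 differentiation UMIs and at most 1 S-phase and 1 G2 or mitotic UMI. Lower bounds used 3 counts over a group. The replicate numbers only name libraries. The deviations of WT library 1 and OVX library 1 had a correlation of -0.276. The OVX library 1 sum came from 5 cells, so this value cannot decide whether WT and OVX libraries pair.

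Genes were named by a rule: the 25 rule genes, the 12 largest rises and falls against comparison cells among calls with 1 direction in both libraries and at least 50 CPM, up to 4 genes per list by smallest p, the 6 largest rises and falls in each of the other gene tests among calls with at least 50 CPM, and Krt5, Krt14, Trp63, Krt6a, Krt1, Esr1 and Pgr. Members and the 26 gene lists were chosen with earlier results of these data known. On simulated counts with a fold of 4 the S-phase against comparison test recovered 81.8% of 187 changed genes with 4 false calls among 157. The OVX against WT test recovered 80.0% of 170 with 5 false among 141. Apart from the changed genes, all simulated sums shared the same gene means. The simulated spread was fixed and not estimated from these data, so the figures may overstate how the tests perform on the real counts. Gene positions are from GENCODE vM21 and promoters from RefSeq. Results for some genes that the rule named are not reported here.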

Additional observations from a re-analysis of the deposited data

How the results depend on the processing

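No named gene past the threshold changed direction under the alternatives run. Genes called between S-phase and comparison cells numbered 234, and 83 with DESeq2, 0 with no replicate block (edgeR, 160 at an unadjusted p under 0.05) and 0 to 16 leaving out a WT library. Without WT library 1, 7 of the 234 had the opposite sign. With no filter on low counts 110 genes were higher and 144 lower. Against G2 and mitotic cells the count was 312, and 126 with DESeq2, 0 with no replicate block (195 unadjusted) and 1 to 85 leaving out a WT library, and with no filter 19 were higher and 324 lower. Between OVX and WT S-phase cells it was 11, and 4 with no filter, 0 to 27 leaving out a library, 8 with the replicate block and 35 with the crossed replicate block, which was added after seeing the data. The interaction count of 0 ranged from 0 to 56 leaving out a library. The rule gave 280 members, 167 with no G2 or mitotic UMI allowed and 177 with no differentiation UMI allowed, and 200 to 380 under the other limits. The difference in share ranged from 2.46 to 5.48 points. The cause of these changes was not tested, beyond the fewer samples that leaving out a library leaves. Values rest on 66 cells in WT library 2 and on 5 in OVX library 1.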

Other observations

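Among the genes higher in S-phase than in comparison cells 98 lay outside the 7 cell-cycle lists. Several of those named here act in nuclear transport, the cytoskeleton and chromatin, and all were chosen after their values were seen. Of the nuclear transport cycle, Ranbp1 stood at 841 and 1401 CPM in S-phase cells against 491 and 809.9 in comparison cells and Ran at 628 and 909 against 397 and 574 (0.70 ± 0.10 and 0.58 ± 0.12, edgeR adjusted p = 1.56e-07 and 3.04e-04). The tubulin gene Tubb5, which has close relatives, stood at 314 and 479.5 against 158 and 216 CPM (0.98 ± 0.16, edgeR adjusted p = 2.11e-06). Dnajc9, a histone co-chaperone gene, stood at 345 and 341 against 101 and 112 CPM (1.62 ± 0.19, edgeR adjusted p = 1.77e-11). Slfn9, of the schlafen family, stood at 208 and 114 against 35.7 and 34.4 CPM (2.23 ± 0.28, edgeR adjusted p = 3.55e-10), and Ptn, which encodes the growth factor pleiotrophin, at 759 and 896 against 490.2 and 486 (0.65 ± 0.11, edgeR adjusted p = 9.30e-06).

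Lower in S-phase cells were the metallothionein genes Mt2, at 1880.3 and 1426 against 2340.0 and 2565 CPM, and Mt1, at 1147 and 1552 against 1483 and 2267 (-0.51 ± 0.08 and -0.46 ± 0.09, edgeR adjusted p = 2.20e-06 and 9.14e-05). Of the desmosome genes, Dsp stood at 3526 and 921 against 4653 and 1289 CPM and Perp at 2560.5 and 2107 against 3281 and 2763 (-0.43 ± 0.08 and -0.41 ± 0.07, edgeR adjusted p = 3.01e-05 and 2.38e-05). H19, an imprinted long RNA gene, was called higher, but stood at 64.7 against 6.16 CPM in library 1 and at 0 against 6.88 in library 2, so its call rests on library 1.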
